A study of Mus musculus with 12 samples.

Results

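The genes described here encode the contractile apparatus of skeletal muscle and the proteins that trigger and fuel contraction. They are 44 named genes of the mouse: 13 of the thin filament, 11 of the thick filament, titin and the M-band, 9 of the Z-disc and intermediate filament, 7 of calcium handling and excitation, and 4 of energy and oxygen supply. They were chosen by name, without the myosin heavy chains, and each was read from its brightest probe set among those that name a single gene. All 44 were found among the 19938 genes measured. Of these, 42 have 1 such probe set, Tpm3 has 4 and Trdn has 19.

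The study measured satellite cells, the muscle stem cells that lie between a fibre and its basal lamina, at 4 stages of life on 12 Affymetrix arrays, with 3 arrays per stage. All mice were heterozygous for Pax7-ZsGreen, a fluorescent reporter tied to Pax7, the transcription factor that marks satellite cells, and the strain is given as C57BL/6. Cells positive for ZsGreen were collected by flow cytometry from the forelimbs and hindlimbs of fetuses at E17.5, and from hindlimb muscle of adolescent mice at postnatal day 21, adult mice of 2 to 3 months and aged mice over 1 year old. No mice without the reporter were put on arrays. The cells of 4 fetal, 6 adolescent, 8 adult and 8 aged mice were pooled, and the labels do not say whether the 3 arrays of a stage come from separate pools, so a p-value here speaks only of the spread among the arrays, which may be technical. Fetal cells thus came from forelimbs too and the rest from hindlimb only, and sorting gates were set by age, so stage cannot be told apart from limb or gate.

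The sarcomere is the repeating unit of a muscle fibre, in which thin filaments of actin, anchored at the Z-disc, slide past thick filaments of myosin, anchored at the M-band. Troponin and tropomyosin on the thin filament hold myosin off actin until calcium is released from the sarcoplasmic reticulum through the ryanodine receptor. Many of these proteins come in forms used by fast fibres, slow fibres, or embryonic muscle and heart, and a resting satellite cell makes little of most of them until it differentiates and fuses.

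Pax7 itself read between 10.36 and 11.71 on every array. All levels are log2 values from the authors' RMA normalization, so a difference of 1 is a 2-fold difference, and levels of different genes are not compared because probe sets differ in brightness. The mean of 11 satellite cell marker genes was 9.68 to 9.79 on the fetal arrays and 10.63 or more on every other array. As a guide to the dim end, the 95th percentile of olfactory and vomeronasal receptor probe sets, genes of sensory neurons, lay between 5.33 and 6.14 across arrays. Of the 44 genes, 34 were above it on all 12 arrays and 10 fell under it on at least 1, among them Myl2, Myom2, Myoz2 and Tcap on 5 arrays each. Where a gene lies at or under this level in a stage, the size of its difference is not exact, and this is said beside the value. Replicates 2 and 3 of each stage were closer to each other than to replicate 1: the SD of the difference between them over all genes was 0.10 to 0.16, against 0.23 to 0.49 between replicates 1 and 2.

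**Figure D1:**
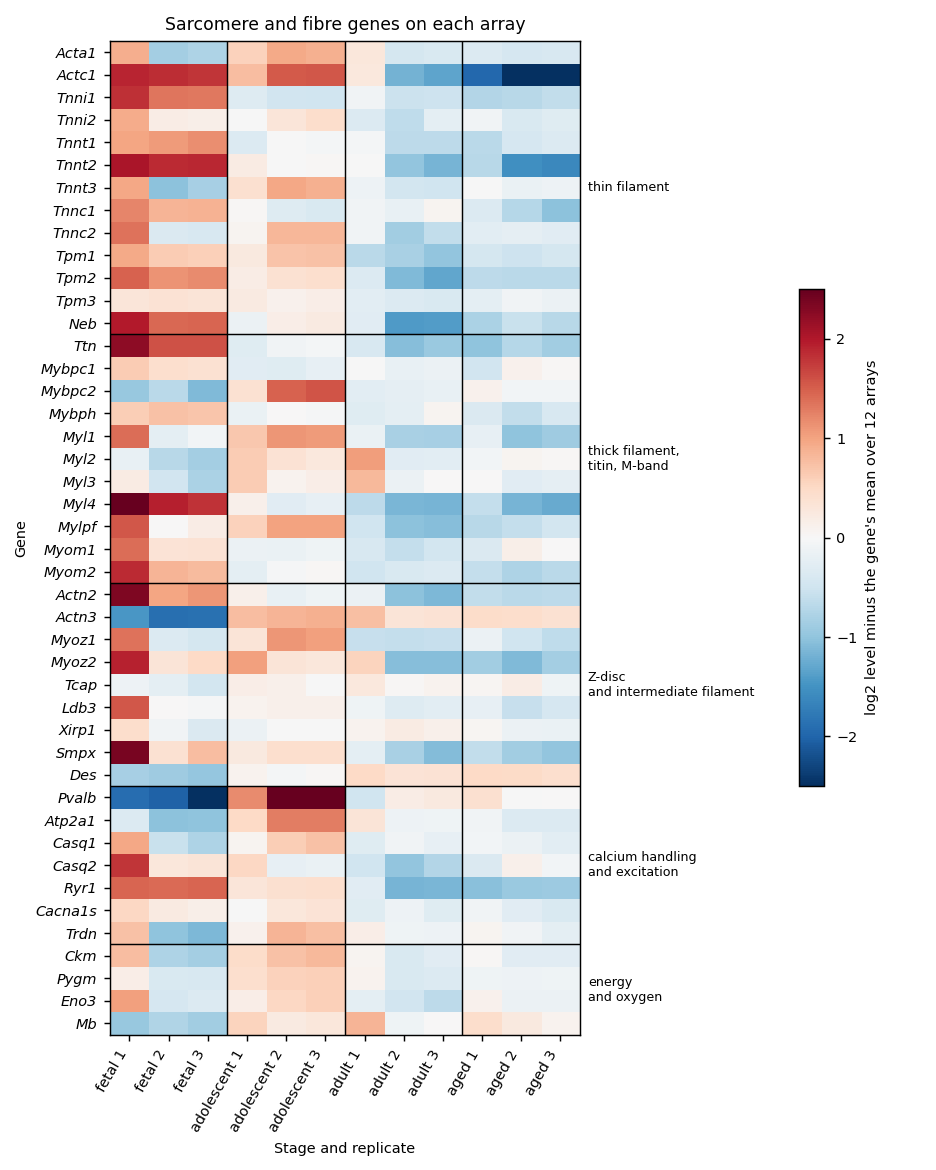
Each row is a gene and each column an array, coloured by the gene's log2 level minus its mean over the 12 arrays (values past 2.5 in either direction take the end colour). Many thin and thick filament genes are highest on the 3 fetal arrays, fetal replicate 1 stands above fetal replicates 2 and 3 for many genes, and Pvalb, Mybpc2 and Actn3 are lowest on the fetal arrays.

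The apparatus as a whole was highest before adulthood. The highest stage mean was fetal for 23 of the 44 genes, against 28.0% of all genes measured. It was adolescent for 18, against 15.4% of all genes. The lead of the fetal stage in this count rests on fetal replicate 1, an array described below. Without it, the adolescent mean lay above the fetal one for Tnni2 (by 0.08), Myoz2 (0.13), Ldb3 (0.12) and Cacna1s (0.02) too, differences that did not pass limma's comparison. The adult mean was the highest for 2, Tcap and Xirp1, and the aged mean for Des alone, against 34.6% and 22.0% of all genes. In 16 of the 44, every fetal array lay above every other array, as in 13.2% of all genes. Differences among the 4 stages passed limma's F-test, at an adjusted p under 0.05 over all genes, for 33 of the 44, against 41.6% of all genes. In these bulk samples, fewer cells that express a gene and less of its RNA per cell cannot be told apart.

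From fetal to adolescent cells the changes went both ways. In limma's comparison, which below is what "passed" refers to, 23 of the 44 passed, against 18.8% of all genes tested: 9 rose and 14 fell, against 10.1% and 8.68% of all genes. Their levels did not overlap between the stages for 25 of the 44 (41.6% of all genes). The median difference over the 44 was -0.12, and over all genes 0.02. From adolescent to adult cells 18 of the 44 passed, against 19.8%: Des rose and 17 fell, against 4.56% and 15.2% of all genes. The median difference was -0.73, against 0.03 over all genes, and the levels of 33 of the 44 did not overlap (36.0% of all genes), 30 of them lower in the adult. With each array centred on its median, 23 of the 44 fell and none rose in this step, Des losing its call, and over all genes 517 rose and 4084 fell in place of 909 and 3032. Of 12 endothelial marker genes, 11 rose in the earlier step and 7 fell in the later. All 11 cycling-cell genes fell in the later step, with a median of -2.94, the list's mean being 9.24 to 9.41 on the adolescent arrays and 5.92 to 7.77 on the adult. The part of these lists in the changes of the 44 was not tested.

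Across the whole span from fetal to adult, 31 of the 44 passed, against 42.5% of all genes: 7 rose and 24 fell, against 19.1% and 23.4%. The median difference was -0.76, against 0.09 over all genes. Of the 31, 22 differed by at least 2-fold, 4 higher and 18 lower in the adult. Over all genes, 2067 of the 8465 that passed differed by at least 2-fold. Levels did not overlap for 31 of the 44 (47.9% of all genes). With each array centred on its median, 5 rose and 25 fell, and over all genes 2542 rose and 5201 fell in place of 3806 and 4659. The fetal, adolescent and adult arrays are each shared by several of these comparisons, so the comparisons are not independent of each other.

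Promoters are shown for the members with the largest falls (Myl4, Ttn and Actc1) and the largest rises (Des, Atp2a1 and Mybpc2) between fetal and adult cells, among those with a single start site in RefSeq. The rise of Mybpc2 (0.69, adjusted p = 0.039 in limma) lost its call without fetal replicate 1 or 3 or adult replicate 2 or 3. Its size is not exact, since the fetal levels of Mybpc2 were near that of the receptor genes. RefSeq's promoter table (GRCm38.p6) holds 43 promoters for 35 of the 44 genes, and the 250 bases before the start site are printed, 5′ to 3′ on the gene's strand. They are chr11:104550413-104550662 on the plus strand for Myl4, chr2:76982548-76982797 on the minus strand for Ttn, chr2:114052876-114053125 on the minus strand for Actc1, chr1:75360042-75360291 on the plus strand for Des, chr7:126463074-126463323 on the minus strand for Atp2a1 and chr7:44524670-44524919 on the minus strand for Mybpc2. Capitals mark matches, on either strand, to the E-box CANNTG bound by Myod1 and myogenin, the MEF2 site, the CArG box bound by serum response factor, and the MCAT element CATTCC.
Myl4: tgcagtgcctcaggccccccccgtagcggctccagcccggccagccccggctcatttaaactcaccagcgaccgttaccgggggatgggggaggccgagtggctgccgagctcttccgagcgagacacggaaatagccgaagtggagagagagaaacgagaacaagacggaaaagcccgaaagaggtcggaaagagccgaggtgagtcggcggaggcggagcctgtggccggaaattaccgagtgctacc
Ttn: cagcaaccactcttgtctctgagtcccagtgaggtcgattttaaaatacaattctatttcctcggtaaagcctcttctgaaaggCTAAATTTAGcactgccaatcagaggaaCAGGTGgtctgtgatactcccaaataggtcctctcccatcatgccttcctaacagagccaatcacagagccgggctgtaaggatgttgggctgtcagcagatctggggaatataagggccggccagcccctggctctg
Actc1: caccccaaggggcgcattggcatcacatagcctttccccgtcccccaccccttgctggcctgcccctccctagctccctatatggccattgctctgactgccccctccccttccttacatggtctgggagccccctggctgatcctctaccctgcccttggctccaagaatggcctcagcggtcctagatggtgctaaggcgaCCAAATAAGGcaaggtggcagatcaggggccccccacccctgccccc
Des: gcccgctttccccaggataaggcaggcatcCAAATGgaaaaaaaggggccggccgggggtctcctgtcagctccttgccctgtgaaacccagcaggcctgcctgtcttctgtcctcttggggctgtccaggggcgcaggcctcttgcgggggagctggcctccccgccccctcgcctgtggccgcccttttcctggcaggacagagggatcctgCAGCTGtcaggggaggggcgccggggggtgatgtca
Atp2a1: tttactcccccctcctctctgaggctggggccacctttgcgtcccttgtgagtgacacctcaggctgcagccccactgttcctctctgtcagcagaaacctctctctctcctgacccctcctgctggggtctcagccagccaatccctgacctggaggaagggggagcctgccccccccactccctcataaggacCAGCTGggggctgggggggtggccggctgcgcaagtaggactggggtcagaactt
Mybpc2: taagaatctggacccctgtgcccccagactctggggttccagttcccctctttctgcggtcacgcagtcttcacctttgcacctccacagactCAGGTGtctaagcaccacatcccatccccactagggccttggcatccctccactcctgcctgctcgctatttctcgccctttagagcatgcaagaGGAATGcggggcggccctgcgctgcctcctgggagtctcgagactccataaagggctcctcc
Myl4 has no match in this window. Ttn has an E-box at -138 to -133 and a MEF2 match at -166 to -157, Actc1 has a CArG box at -47 to -38, Des E-boxes at -220 to -215 and -36 to -31, Atp2a1 an E-box at -55 to -50, and Mybpc2 an E-box at -157 to -152 and an MCAT match on the opposite strand at -62 to -57. Over the 43 promoters, an E-box was present in 83.7%, against 66.2% of all 32851 promoters in the table. A CArG box was present in 14% (6 of the 43) against 1.47%. A MEF2 site was present in 4.65% (only 2 of the 43) against 0.508%, and an MCAT element in 23.3% (10 of the 43) against 12.6%. These are counts of letters and show no binding.

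Several arrays stood apart from their own stage. On fetal replicate 1, 17 of the 44 genes were at least 2-fold above the mean of fetal replicates 2 and 3, as were 0.456% of all genes, and 39 were above both (35.1% of all genes). Without this array, 34 of the 44 passed between fetal and adolescent cells (16.7% of all genes), 20 higher and 14 lower in the adolescent, and all 23 calls made with it were among them. On adult replicate 1, 5 of the 44 were at least 2-fold above the other adult arrays (2.45% of all genes) and 34 were above both (44.2%). Without it, 31 of the 44 passed between adolescent and adult cells (54.0% of all genes), 1 higher and 30 lower, whereas without adult replicate 2 or without adult replicate 3 only 10 passed (9.41% and 9.72% of all genes). When replicates 2 and 3 were averaged within each stage, 17 passed between fetal and adolescent cells (7.38% of all genes), 1 (Tpm1) between adolescent and adult (1.62%), and 24 between fetal and adult (17.7%).

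**Figure D2:**
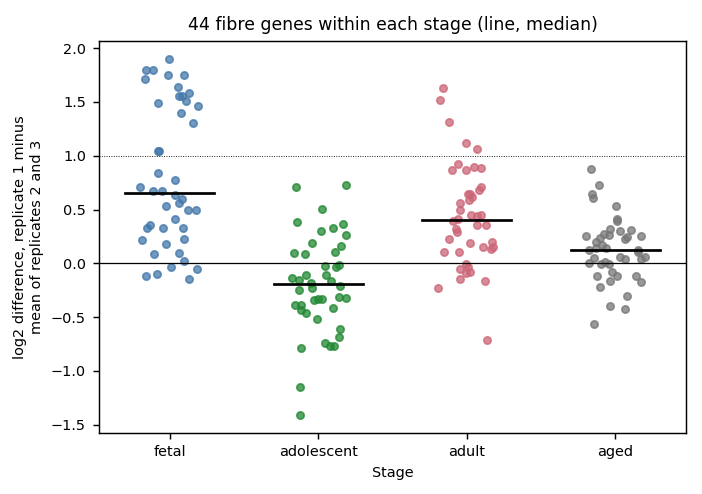
Each point is 1 of the 44 genes; the vertical axis is its log2 level on replicate 1 minus the mean of replicates 2 and 3 of the same stage, and the bar is the median over the genes. The fetal points reach 1.90 with a median of 0.65, and the adolescent points fall to -1.41.

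Marker genes of other cell types differed on the same arrays. The mean of 9 fibroblast genes was 9.54 on fetal replicate 1 and 8.82 and 8.84 on the other fetal arrays, all 9 being above both. The 12 endothelial genes averaged 7.68 there and 6.87 and 6.85 on the others, again with all 12 above both. The 11 cycling-cell genes averaged 9.77 there and 10.05 and 10.11 on the others. On adult replicate 1 the cycling-cell genes averaged 7.77, against 5.98 and 5.92 on the other adult arrays, and Myog, the differentiation factor myogenin, read 9.50 against 7.32 and 7.49. The part of these cells in the levels of the 44 genes was not tested.

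With all 12 arrays, the thin filament genes that passed all fell. Without fetal replicate 1, Acta1, Tnnt3 and Tnnc2 rose and passed from fetal to adolescent cells, as given below. Of the 13, none rose and 6 fell from fetal to adolescent cells (10.1% and 8.68% of all genes). None rose and 6 fell from adolescent to adult (4.56% and 15.2%). Between fetal and adult 10 fell (23.4%), and the median difference was -1.53. Actc1, the actin of heart and embryonic muscle, read 12.13, 12.07 and 12.02 on the fetal arrays, 11.01, 11.76 and 11.79 on the adolescent, 10.50, 9.05 and 8.91 on the adult and 8.27, 7.67 and 7.57 on the aged arrays. The 4 stages form a descending series without overlap. Its difference from fetal to adolescent did not pass (-0.56 ± 0.35, SE, adjusted p = 0.38). It fell by 2.03 ± 0.35 (4.09-fold, adjusted p = 0.0021) from adolescent to adult and by 1.65 ± 0.35 (3.14-fold, adjusted p = 0.024) from adult to aged.

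Acta1, the skeletal actin of mature fibres, went differently. It read 10.92, 9.17 and 9.25 in the fetus, 10.59, 10.96 and 10.90 in the adolescent, 10.29, 9.57 and 9.64 in the adult and 9.67, 9.60 and 9.62 in the aged. Fetal replicate 1 lay within the adolescent range and the other fetal arrays lay below all others. The adolescent minus fetal difference of 1.04 ± 0.36 did not pass (adjusted p = 0.068), and without fetal replicate 1 it was 1.61 (adjusted p = 0.00014).

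Troponin, the calcium switch, is built of an inhibitory (TnI), a tropomyosin-binding (TnT) and a calcium-binding (TnC) subunit. The slow form of TnI, Tnni1, read 8.53, 8.05 and 8.02 in the fetus, 6.38, 6.24 and 6.20 in the adolescent, 6.63, 6.18 and 6.19 in the adult and 5.97, 6.01 and 6.10 in the aged. Every fetal array was above every other array, and the later stages lay close together. It fell by 1.92 ± 0.15 from fetal to adolescent (3.80-fold, adjusted p = 1.5e-06). Tnnt1, the slow TnT, and Tnnc1, the slow and cardiac TnC, each fell by 1.21 ± 0.17 in that step.

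Tnnt2, the TnT of heart and embryonic muscle, stood at 10.17, 9.98 and 10.01 in the fetus, 8.32, 8.12 and 8.15 in the adolescent, 8.12, 7.15 and 6.96 in the adult and 7.43, 6.59 and 6.51 in the aged. All fetal arrays were above all adolescent ones, and adult replicate 1 lay just below the lowest adolescent array. Between fetal and adult cells it fell by 2.64 ± 0.28 (6.25-fold, adjusted p = 9.1e-06). Tnni1 and Tnnt2 lie on chromosome 1 with 1 protein-coding gene between them in RefSeq, as do the fast forms Tnni2 and Tnnt3 on chromosome 7.

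The fast troponin genes did not share this course. Tnnt3 read 9.91, 7.92 and 8.10 in the fetus, 9.34, 9.90 and 9.82 in the adolescent, 8.82, 8.48 and 8.45 in the adult and 8.94, 8.78 and 8.81 in the aged. Fetal replicate 1 was as high as the adolescent arrays and the other fetal arrays were the lowest of all. Its difference of 1.05 ± 0.39 from fetal to adolescent did not pass (adjusted p = 0.088), and without fetal replicate 1 it was 1.68 and passed, as did Tnnc2, the fast TnC, at 0.97. Without that array the adult minus fetal difference of Tnnt3 also turned from -0.06 to 0.57 and passed. Tnni2 fell by 0.64 ± 0.20 from adolescent to adult, a call lost without either adolescent or adult replicate 2 or 3.

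The tropomyosins lie along actin and move with troponin. Tpm2 read 10.29, 9.95 and 9.99 in the fetus, 9.00, 9.19 and 9.23 in the adolescent, 8.48, 7.71 and 7.51 in the adult and 8.16, 8.15 and 8.14 in the aged. It fell at both steps, by 0.94 ± 0.20 and then by 1.24 ± 0.20, with no overlap between stages. Tpm1 did not pass from fetus (9.99 to 10.35) to adolescent (9.66 to 10.13) and then fell by 1.38 ± 0.14 to between 8.42 and 8.73 in the adult. Of the 18 genes called between adolescent and adult cells, Tpm1 was the single gene called under every setting tried. Tpm3 fell by 0.48 ± 0.09 in that step, but its other 3 probe sets were not called and RefSeq lists copies of it elsewhere in the genome, so its value is uncertain.

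Neb encodes nebulin, the giant protein that spans the thin filament. It stood at 10.36, 9.82 and 9.84 in the fetus, 8.24, 8.54 and 8.60 in the adolescent, 8.09, 6.96 and 6.99 in the adult and 7.59, 7.83 and 7.69 in the aged. The fetal arrays were the highest, and adult replicate 1 lay above every aged array while the other adult arrays lay below them. Neb fell by 1.55 ± 0.26 and then by 1.12 ± 0.26, the later fall losing its call without adult replicate 2 or 3. Between fetal and adult cells it fell by 2.66 ± 0.26 (6.33-fold, adjusted p = 4.3e-06).

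**Figure D3:**
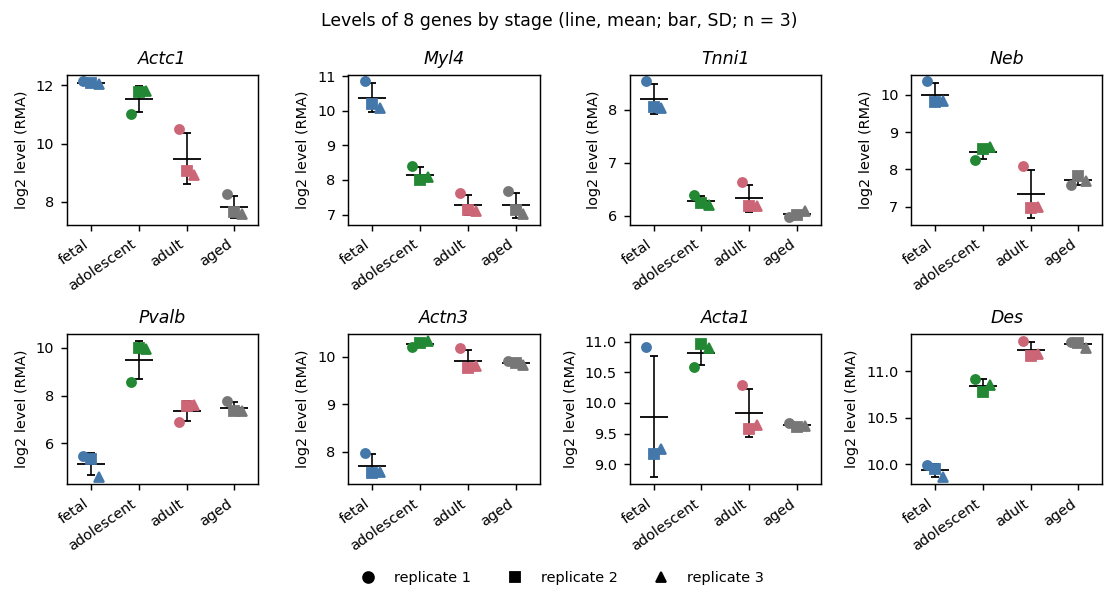
Points are the log2 levels of 8 genes on each of the 3 arrays per stage, with the stage mean as a line and the SD as a bar (n = 3). Actc1, Myl4, Tnni1 and Neb are highest in the fetus, Pvalb peaks in the adolescent, Acta1 is split by fetal replicate 1, and Des is lowest in the fetus and higher at each of the next 2 stages.

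With no array left out, genes of the thick filament and M-band fell more often than they rose. Of the 11, 2 rose and 6 fell from fetal to adolescent cells (10.1% and 8.68% of all genes). Without fetal replicate 1 these calls held, and the light chains Myl1 (1.10), Mylpf (0.77) and Myl3 (0.93) also rose and passed. The lead of the falls in this step thus rested largely on that array. In the later comparisons, the counts are again those with no array left out. None rose and 5 fell from adolescent to adult (4.56% and 15.2%). Between fetal and adult 1 rose and 8 fell (19.1% and 23.4%), with a median of -0.97. Titin (Ttn), the spring that runs from Z-disc to M-band, read 9.76, 9.13 and 9.13 in the fetus, 7.24, 7.45 and 7.48 in the adolescent, 7.12, 6.47 and 6.60 in the adult and 6.53, 6.82 and 6.67 in the aged. The fetal arrays were far above all others and the adult and aged ranges overlapped. Ttn fell by 1.95 ± 0.19 from fetal to adolescent (3.88-fold, adjusted p = 1e-05) and by 2.61 ± 0.19 from fetal to adult. The M-band proteins myomesin 1 and 2, which cross-link thick filaments, also fell from fetal to adolescent. Myom1 fell by 0.83 ± 0.23 and Myom2 fell by 1.26 ± 0.22, and the call of Myom1 was lost without any 1 of the adolescent arrays.

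The myosin light chains bind the neck of the heavy chain. Myl4, the light chain of embryonic muscle and atrium, read 10.85, 10.21 and 10.07 in the fetus, 8.40, 7.99 and 8.08 in the adolescent, 7.62, 7.14 and 7.10 in the adult and 7.67, 7.12 and 7.00 in the aged. Each stage to the adult lay below the one before without overlap, and the adult and aged ranges overlapped. It fell by 2.22 ± 0.23 (4.66-fold, adjusted p = 1.4e-05) from fetal to adolescent and by 3.09 ± 0.23 (8.52-fold) from fetal to adult, where it had the largest fall of the 44. The fast chains Myl1 and Mylpf and the slow chains Myl2 and Myl3 had their highest stage mean in the adolescent. Mylpf, the fast regulatory chain, read 8.55, 6.99 and 7.18 in the fetus, 7.57, 7.99 and 8.00 in the adolescent, 6.50, 5.96 and 5.92 in the adult and 6.30, 6.40 and 6.52 in the aged.

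Fetal replicate 1 was above the adolescent arrays for Mylpf, and every adolescent array was above every adult one. It fell by 1.73 ± 0.32 (adjusted p = 0.003) from adolescent to adult, a size that is not exact since adult replicates 2 and 3 lay under the receptor level. Myl1, the fast essential chain, fell by 1.55 ± 0.37, and lost that call without adult replicate 2 or 3 and with replicates 2 and 3 averaged. Myl2, the slow and cardiac regulatory chain, rose by 1.00 ± 0.29 from fetal (4.80 to 5.48) to adolescent (5.92 to 6.30), levels near those of the receptor genes. The rise of Myl2 lost its call without any 1 of 5 arrays (fetal replicates 2 and 3 and each adolescent array).

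Myosin-binding protein C ties the thick filament together, and its fast and slow forms moved in opposite directions. The fast form Mybpc2 read 5.54, 5.81 and 5.37 in the fetus, 6.86, 7.96 and 8.06 in the adolescent, 6.22, 6.26 and 6.29 in the adult and 6.59, 6.42 and 6.41 in the aged. The adolescent arrays were above all others and the fetal ones below all others. It rose by 2.05 ± 0.24 (4.15-fold, adjusted p = 5.2e-05) and then fell by 1.37 ± 0.24. The size of the rise is not exact, since the fetal levels were near that of the receptor genes. The slow form Mybpc1 fell by 0.74 ± 0.14 and the related Mybph by 0.75 ± 0.12 from fetal to adolescent.

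Z-disc genes went both ways. Of the 9, 3 rose and 1 fell from fetal to adolescent cells (10.1% and 8.68% of all genes). From adolescent to adult 1 rose and 1 fell (4.56% and 15.2%), and between fetal and adult 3 rose and 3 fell (19.1% and 23.4%). The alpha-actinins cross-link actin at the Z-disc. Actn3, the form of fast fibres, read 7.98, 7.55 and 7.57 in the fetus, 10.20, 10.30 and 10.32 in the adolescent, 10.19, 9.76 and 9.79 in the adult and 9.90, 9.88 and 9.83 in the aged. The fetal arrays were far below all others, which lay within a narrow range. Actn3 rose by 2.57 ± 0.14 (5.94-fold, adjusted p = 4.3e-08) and stayed 2.21 ± 0.14 above the fetal level in the adult.

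Actn2, the form found in all fibre types and heart, went the other way, with 9.92, 8.56 and 8.67 in the fetus, 7.70, 7.39 and 7.48 in the adolescent, 7.43, 6.55 and 6.46 in the adult and 6.97, 6.90 and 6.92 in the aged. All fetal arrays were above all others. It fell by 1.53 ± 0.32 (2.88-fold, adjusted p = 0.0039), and without fetal replicate 1, its highest array, its fall still passed. Smpx, a small striated muscle protein, fell by 1.89 ± 0.39 between fetal and adult cells, with adult replicates 2 and 3 (5.41 and 5.15) under the receptor level. The calsarcin Myoz1, which binds calcineurin at the Z-disc of fast fibres, fell by 1.40 ± 0.38 from adolescent to adult, and lost that call without replicate 2 or 3 of either stage.

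Desmin (Des), the intermediate filament that links Z-discs and is made by satellite cells themselves, was the gene that rose at both steps. It read 9.99, 9.94 and 9.86 in the fetus, 10.91, 10.78 and 10.85 in the adolescent, 11.33, 11.17 and 11.18 in the adult and 11.32, 11.31 and 11.25 in the aged. The fetal, adolescent and adult ranges rise without overlap and the aged range lies within the adult one. Des rose by 0.91 ± 0.09 (1.88-fold, adjusted p = 9.8e-06) and by 0.38 ± 0.09 (adjusted p = 0.011), the later rise losing its call without adolescent replicate 2. Tcap, or telethonin, which caps titin at the Z-disc, rose by 0.38 ± 0.12 from fetal (5.11 to 5.43) to adolescent (5.55 to 5.73), levels near those of the receptor genes, and lost that call without any 1 of fetal replicates 2 and 3 and the adolescent arrays.

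Of the 7 calcium handling genes, Pvalb, Atp2a1, Casq1 and Trdn had their highest mean in the adolescent and Ryr1, Casq2 and Cacna1s in the fetus. In the tests, 2 rose and 1 fell from fetal to adolescent cells (10.1% and 8.68% of all genes). None rose and 4 fell from adolescent to adult (4.56% and 15.2%), and 2 rose and 3 fell between fetal and adult (19.1% and 23.4%). Parvalbumin (Pvalb), the calcium buffer of fast fibres, read 5.45, 5.33 and 4.57 in the fetus, 8.55, 9.98 and 9.94 in the adolescent, 6.87, 7.55 and 7.61 in the adult and 7.76, 7.36 and 7.37 in the aged. The fetal arrays were far below and the adolescent arrays above all others. It rose by 4.37 ± 0.35 (adjusted p = 1.8e-06), a size that is not exact since fetal replicates 2 and 3 lay under the receptor level, and then fell by 2.15 ± 0.35 (4.42-fold, adjusted p = 0.0015).

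Atp2a1 encodes SERCA1, the pump that returns calcium to the reticulum of fast fibres. It stood at 8.84, 8.15 and 8.17 in the fetus, 9.67, 10.46 and 10.46 in the adolescent, 9.51, 9.05 and 9.07 in the adult and 9.09, 8.84 and 8.83 in the aged. The adolescent arrays were the highest. It rose by 1.81 ± 0.23 (3.51-fold, adjusted p = 9.7e-05) and fell by 0.99 ± 0.23 from adolescent to adult, a fall that lost its call without replicate 2 or 3 of either stage.

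Ryr1, the ryanodine receptor that releases calcium, was the calcium gene that fell at both steps. It read 9.33, 9.29 and 9.32 in the fetus, 8.17, 8.27 and 8.29 in the adolescent, 7.59, 6.71 and 6.73 in the adult and 6.83, 6.93 and 6.95 in the aged. The fetal, adolescent and adult arrays descend without overlap, and fetal replicate 1 does not stand apart. It fell by 1.07 ± 0.18 (adjusted p = 0.001), then by 1.23 ± 0.18 (adjusted p = 0.00083). Triadin (Trdn), which anchors calsequestrin to the receptor, read 8.35, 6.61 and 6.50 in the fetus and 7.74, 8.47 and 8.37 in the adolescent, so that fetal replicate 1 lay among the adolescent arrays. In this probe set, its brightest, the difference of 1.04 ± 0.38 did not pass (adjusted p = 0.082). Without fetal replicate 1 it was 1.64 and passed, as did the difference of the fast calsequestrin Casq1, at 1.13. The result for Trdn depended on the probe set. With no array left out, the mean of its 19 probe sets passed, as did some single ones, all dimmer than the brightest. Other single probe sets of Trdn did not pass.

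Of the 4 genes of energy and oxygen supply, 2 rose and none fell from fetal to adolescent cells (10.1% and 8.68% of all genes). None rose and 1 fell from adolescent to adult (4.56% and 15.2%), and 1 rose between fetal and adult (19.1%). Myoglobin (Mb), the oxygen store of oxidative fibres, read 6.41, 6.62 and 6.50 in the fetus, 7.91, 7.58 and 7.64 in the adolescent, 8.21, 7.26 and 7.37 in the adult and 7.79, 7.59 and 7.45 in the aged. The fetal arrays were below all others, whose ranges overlapped. It rose by 1.20 ± 0.21 (2.30-fold, adjusted p = 0.001). Pygm, the glycogen phosphorylase of muscle, rose by 0.73 ± 0.16 and fell back by 0.74 ± 0.16. Muscle creatine kinase (Ckm), which rebuilds ATP from phosphocreatine, had 10.34, 8.79 and 8.72 in the fetus and 10.03, 10.31 and 10.39 in the adolescent, a difference of 0.96 ± 0.33 that did not pass (adjusted p = 0.064) and that was 1.49 and passed without fetal replicate 1.

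**Figure D4:**
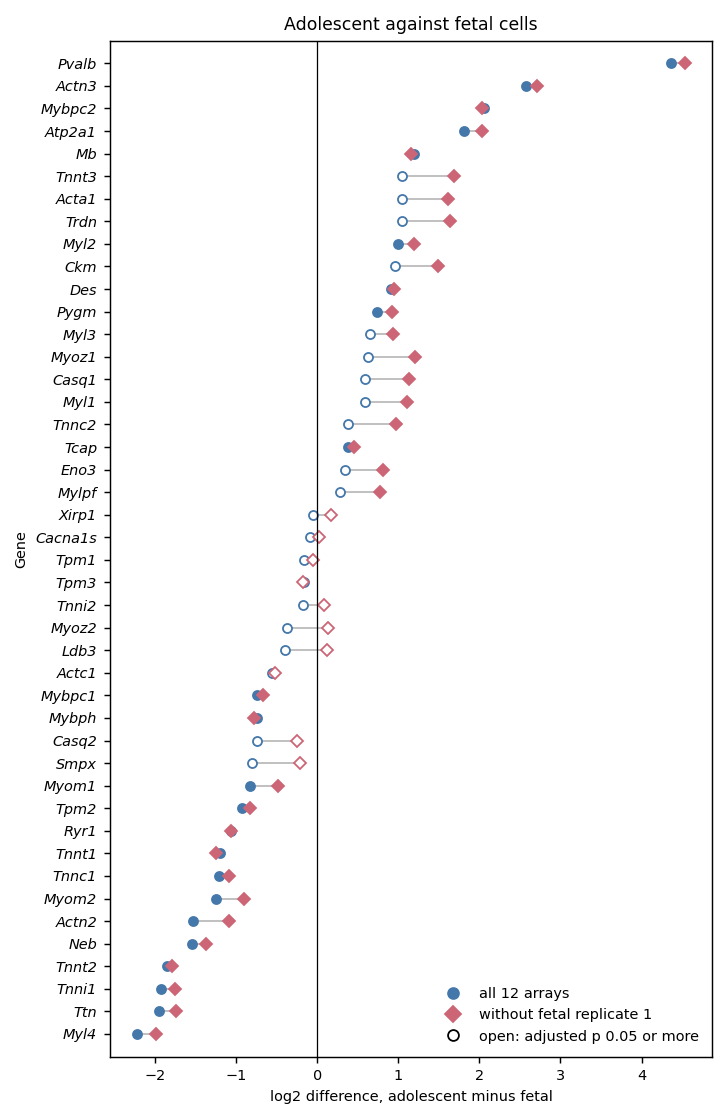
The horizontal axis is the log2 difference of adolescent minus fetal cells for each gene, with all 12 arrays (circles) and without fetal replicate 1 (diamonds), filled where the adjusted p was under 0.05. Without that array 20 genes are filled to the right of 0 and 14 to the left, against 9 and 14 with it.

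Grouped by fibre type, the 11 genes of fast fibres had 4 that rose and none that fell from fetal to adolescent cells (median 0.62). Over all genes, 10.1% rose and 8.68% fell in that step. From adolescent to adult none of the 11 rose and 7 fell (median -1.11), against 4.56% and 15.2% of all genes. All 11 were lower on every adult array than on every adolescent one, as were 4459 of the 19938 genes. The group of slow fibres held 8 genes (Tnni1, Tnnt1, Tnnc1, Tpm3, Myl2, Myl3, Myoz2 and Casq2), of which 1 rose and 3 fell in the earlier step (median -0.56). The 1 that fell in the later step (median -0.29) was Tpm3, whose value is uncertain. Mybpc1, the slow myosin-binding protein C, was not in this group. The 3 genes of embryonic muscle and heart (Actc1, Tnnt2 and Myl4) all fell between fetal and adult cells (23.4% of all genes), with a median of -2.64. The arrays standing apart bear on these groups: on fetal replicate 1, 6 of the 11 fast genes were at least 2-fold above the other fetal arrays (0.456% of all genes). Without that array, Tnnt3, Tnnc2, Myl1, Mylpf, Casq1 and Myoz1 of the fast group also rose and passed from fetal to adolescent cells. Tnni2 (0.08) still did not, and in the slow group the rise of Myl3 (0.93) passed too. Over all genes, 1750 of 19938 rose and passed in that fit. On adolescent replicate 1 all 11 fast genes were below both other adolescent arrays (37.8% of all genes), and 7 of the 8 genes of the slow group, the uncertain Tpm3 among them, were above both (45.3%). Mybpc1, at 9.33 there and 9.31 and 9.40 on the others, was not. The endothelial mean there was 8.93, against 8.32 and 8.37, and the smooth muscle and pericyte mean 8.63, against 8.18 and 8.21. The mean of 9 macrophage genes was 6.98, against 6.44 and 6.47, all 9 being above both. The fibroblast mean was 8.76, against 9.06 and 9.07, with all 9 genes below both. The part of these cells in the levels was not tested.

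For 8 pairs of related forms, a fast form and its slow counterpart or, for Actn3, the broadly expressed Actn2, the difference between the forms was taken within each array, and its change between stages described without a test, since the pairs were chosen with their values known. The change from fetal to adolescent was above 0 for 7 of the 8 pairs, from -0.72 to 4.10, and 5 moved up without overlap. From adolescent to adult, 5 moved down without overlap. Actn3 minus Actn2 changed by 4.10, Mybpc2 minus Mybpc1 by 2.80, Tnnt3 minus Tnnt1 by 2.25 and Tnni2 minus Tnni1 by 1.74 from fetal to adolescent. The size for Mybpc2 minus Mybpc1 is not exact, since Mybpc2 was near the receptor level on the fetal arrays. Mylpf minus Myl2 was the pair that went the other way, by -0.72, with overlap between the stages (2.03 to 3.07 in the fetus, 1.27 to 2.08 in the adolescent). Its size is not exact, since Myl2 lay under the receptor level on fetal replicates 2 and 3. Both of these genes lay under that level on adult replicates 2 and 3. Without fetal replicate 1 the change was 3.80 for the alpha-actinins and 2.93 for Tnnt3 minus Tnnt1.

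**Figure D5:**
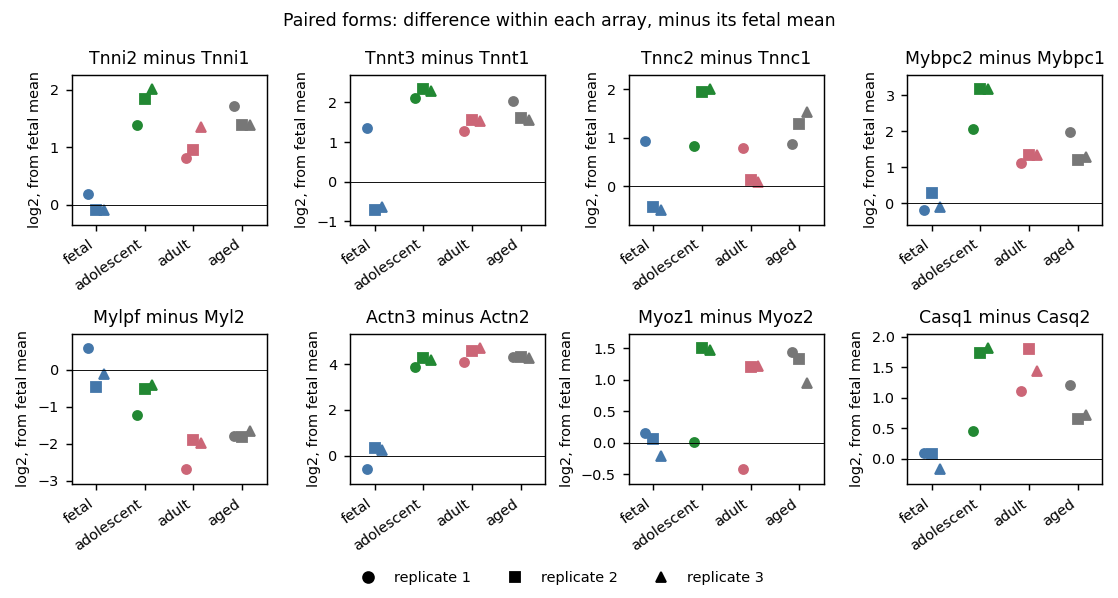
Each panel shows, per array, the log2 level of the gene named before minus that of the gene named after it in the title, less the mean of the same difference over the 3 fetal arrays. Actn3 minus Actn2 stays about 4 above the fetal mean at all later stages, and Mylpf minus Myl2 is the pair that lies below it in the adult and aged cells. The size of that drop is not exact, since Mylpf and Myl2 both lay under the receptor level on adult replicates 2 and 3.

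Between adult and aged cells, 1 of the 44 passed, against 3.50% of all genes (3.28% higher and 0.216% lower): Actc1, described above. At an unadjusted p under 0.05 there were 4 of the 44, against 4217 of the 19938 genes. The levels of 12 of the 44 did not overlap, as in 16.0% of all genes. The call of Actc1 was lost without aged replicate 2 or 3, in a fit of these stages alone, with values under 6 set to 6 and with replicates 2 and 3 averaged. Without adult replicate 1, 6 of the 44 passed, 3 higher and 3 lower in the aged, while 39.3% of all genes did: Neb (0.73), Tpm2 (0.54) and Tpm1 (0.43) were higher, and Actc1 (-1.14), Tnnc1 (-0.64) and Mybph (-0.38) lower. Of 12 endothelial marker genes, 8 rose in the aged cells and none fell, with a median of 1.18, and the list's mean went from 7.71 to 7.75 on the adult arrays to 8.51 to 9.06 on the aged. Their part in the levels of the 44 was not tested.

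Among 13 regulators of fibre genes, 2 rose and 6 fell from fetal to adolescent cells (10.1% and 8.68% of all genes). From adolescent to adult 2 rose and 4 fell (4.56% and 15.2%), and none passed between adult and aged (3.50%). Mstn, the secreted inhibitor of muscle growth myostatin, read 9.90, 9.96 and 9.98 in the fetus, 5.30, 5.37 and 5.38 in the adolescent, 4.52, 4.53 and 4.71 in the adult and 4.94, 4.74 and 4.76 in the aged. The fetal arrays were far above all others, and Mstn fell by 4.60 ± 0.09 (adjusted p = 2.6e-11), a size that is not exact since all adolescent arrays lay under the receptor level. Myod1, the myogenic determination factor, rose by 0.79 ± 0.11 in that step. Myog read 9.38, 9.34 and 9.36 in the fetus, 9.64, 10.33 and 10.33 in the adolescent, 9.50, 7.32 and 7.49 in the adult and 7.38, 6.81 and 6.62 in the aged, and fell by 2.00 ± 0.44 from adolescent to adult (adjusted p = 0.0083). Smyd1, a methyltransferase of striated muscle, fell by 1.06 ± 0.15 from fetal to adolescent, where its levels (5.47 to 5.62) were near that of the receptor genes. Tead4, which binds the MCAT element, fell by 0.78 ± 0.14 from adolescent to adult. Mef2c, which binds the MEF2 site, fell by 1.60 ± 0.27 from fetal to adult, with adult replicates 2 and 3 (6.06 and 6.02) under the receptor level. The sizes for Smyd1 and Mef2c are therefore not exact.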

How the data were processed

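Total RNA (100 ng per sample, per the labels' protocols) from 12 samples was put on Affymetrix whole-transcript arrays. The deposited values are log2 levels made by the authors with RMA in Affymetrix Expression Console 1.2.1.20, per the submitters' processing notes; the genome build is not given in the sources used here. Of 35556 probe sets, 21789 name 1 gene in the platform annotation, 1621 several and 12146 none; those with 1 were kept, and the probe set with the highest mean over all arrays stood for its gene. No further normalization was applied, and array medians lay between 6.13 and 6.29. With 3 arrays a stage, their number limits the precision.

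One linear model with a mean per stage was fitted to all 12 arrays with limma 3.58.1 in R 4.3.3 (8 residual degrees of freedom), and p-values were Benjamini-Hochberg adjusted over 19938 genes at 0.05. Differences carry the model's SE. The model was tested on simulated data. Members, role groups, marker lists and pairs were chosen with earlier results of these data known. Any of the 44 could be named; of each other list, up to 4 genes with the smallest p in a comparison, with Pax7, Mki67, Mstn, Myod1, Myog and the myosin heavy chains. Replicate numbers were not taken as pairs: same-numbered arrays' deviations correlated between -0.44 and 0.36, differently numbered ones between -0.42 and 0.45, and the labels state no pairing. Alternatives were another normalization, centring, a floor, filters, probe set means, array weights, other variance settings, a replicate block, averaging replicates 2 and 3, and leaving out arrays. Leaving out replicate 1 of every stage, and leaving out fetal and adult replicate 1 together, were chosen after seeing the data.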

Additional observations from a re-analysis of the deposited data

How the results depend on the processing

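The count of genes that passed stayed within 1.5 times for fetal against adult cells and for the F-test under all alternatives. Leaving out 1 array at a time gave 20 to 34 for adolescent against fetal, 10 to 31 for adult against adolescent, 0 to 6 for aged against adult, 29 to 35 for adult against fetal and 31 to 42 for the F-test. In that order, the shares of all genes in these fits ran from 13.5% to 16.7%, 9.41% to 54.0%, 1.07% to 39.3%, 29.7% to 65% and 33.4% to 71.2%. Down-weighting arrays, a fit that stopped before it converged, gave 36 for adolescent against fetal, 37 for adult against adolescent and 26 for aged against adult, with 40.3%, 75.7% and 79.1% of all genes. Leaving out replicate 1 of every stage gave 37, 37 and 26, with 2 arrays a stage and 37%, 66.5% and 68.9% of all genes. Leaving out fetal and adult replicate 1 gave 37 for adult against adolescent and 13 for aged against adult, with 54.6% and 39.8% of all genes. Averaging replicates 2 and 3 gave 1 and 0 for these comparisons, with 1.62% and 0.01% of all genes. For aged against adult, a fit of these stages alone gave 0 (0.883% of all genes), repeated quantile normalization 2 (4.25%) and a floor of 6 gave 0 (2.78%). With the replicate number as a block the counts were 24, 19, 2 and 33 for the 4 comparisons and 35 for the F-test; the block ended the calls of Tnni2 and Cacna1s between adolescent and adult.

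Among differences that passed in the reported fit or in the alternative, signs turned for aged minus adult with array weights in Tnnt1 (0.31), Mybpc1 (0.20), Myl2 (0.29), Ryr1 (0.22) and Mb (0.15), and without replicate 1 of every stage in Tnnt1 (0.29), Ttn (0.21), Mybpc1 (0.23), Myl2 (0.32), Ryr1 (0.22) and Mb (0.21). For adult minus fetal, Tnnt3 (0.45) and Casq1 (0.51) turned without replicate 1 of every stage and without fetal and adult replicate 1, and Tnnt3 (0.57) without fetal replicate 1; over the settings that left out arrays Tnnt3 ran from -0.42 to 0.57 and Casq1 from -0.41 to 0.51. Casq1 without fetal replicate 1 (0.46) and further turns among differences that passed in neither fit are not counted here. The cause was not tested. Of the calls, 17 of 23, 1 of 18, 0 of 1 and 23 of 31 held in every setting that gave a value. Dim genes are limited by their signal: 10 of the 44 fell to the level of receptor genes on at least 1 array.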

Other observations

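The dystrophin complex, which ties the fibre's cytoskeleton to its surroundings, went both ways. Of 14 genes, 5 rose and 4 fell from fetal to adolescent cells (10.1% and 8.68% of all genes). Dystrophin (Dmd) read 8.00, 7.63 and 7.72 in the fetus and 8.97, 9.14 and 9.18 in the adolescent, and rose by 1.32 ± 0.17, and dystroglycan (Dag1) rose by 0.74 ± 0.08. Sgcd, a sarcoglycan, fell by 1.30 ± 0.17, a size that is not exact since its adolescent levels (5.44 to 5.55) were near that of the receptor genes. Dtna, alpha-dystrobrevin, fell by 1.13 ± 0.16. The adolescent arrays lay above the fetal ones for Dmd and Dag1 and below them for Sgcd and Dtna, without overlap.

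Of 20 other genes of the triad and of excitation, 4 rose and 1 fell in that step (10.1% and 8.68% of all genes). From adolescent to adult 1 rose and 5 fell (4.56% and 15.2%). The subunits of the acetylcholine receptor, which opens at the nerve-muscle junction, did not move together. Chrna1, the alpha subunit, rose by 1.22 ± 0.18, while Chrng, the gamma subunit of the fetal receptor, read 7.97, 7.93 and 8.03 in the fetus, 6.70, 6.77 and 6.86 in the adolescent and 5.85 to 6.04 in the adult, falling by 1.20 ± 0.12 and then by 0.84 ± 0.12, with adult replicates 2 and 3 under the level of the receptor genes. Chrnd, the delta subunit, fell by 1.55 ± 0.19 from adolescent to adult, with the same adult arrays under that level. Pln, phospholamban, the inhibitor of the slow and cardiac calcium pump, rose by 1.74 ± 0.22 from fetal to adolescent, a size that is not exact since all fetal arrays (4.73 to 4.93) lay under the level of the receptor genes.

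Of 28 further sarcomere and Z-disc genes, 5 rose and 6 fell from fetal to adolescent cells (10.1% and 8.68% of all genes). Between adult and aged 2 rose (3.28%). Lmod2, a leiomodin that lengthens thin filaments, rose by 2.44 ± 0.30, from fetal arrays of which replicates 2 and 3 (4.91 and 4.76) lay under the level of the receptor genes, and Tmod1, the tropomodulin that caps them, fell by 0.98 ± 0.18 and then by 1.05 ± 0.18. Ankrd1, a stretch-responsive protein that binds titin, read 7.73, 8.04 and 8.03 in the fetus, 9.29, 9.01 and 8.92 in the adolescent, 9.71, 9.60 and 9.59 in the adult and 10.49, 10.16 and 10.09 in the aged. It rose at each step, the last by 0.62 ± 0.14 (adjusted p = 0.029). Of 15 further energy enzymes, 2 rose and 1 fell from fetal to adolescent, near the shares of all genes (10.1% and 8.68%). Cox7a1, a cytochrome oxidase subunit of muscle, rose by 1.67 ± 0.28. On fetal replicate 1, 7 of the 28 sarcomere genes and 4 of the 15 energy enzymes were at least 2-fold above the other fetal arrays (0.456% of all genes).

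The 6 myosin heavy chain genes of fibres had 3 that rose and 2 that fell from fetal to adolescent cells (10.1% and 8.68% of all genes). The embryonic chain Myh3 read 9.36, 8.25 and 8.42 in the fetus and 4.89, 5.02 and 5.10 in the adolescent and fell by 3.67 ± 0.24, while the fast chains Myh4 and Myh1 rose by 2.50 ± 0.18 and 2.01 ± 0.12. These sizes are not exact: Myh3 on all adolescent arrays, Myh1 on all fetal arrays and Myh4 on 1 fetal array lay under the level of the receptor genes. Myh3 and the perinatal chain Myh8 (9.36 against 7.62 and 7.47) were also higher on fetal replicate 1 than on the other fetal arrays.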
